A study of Mus musculus with 816 samples.

Results

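Untreated microglia were grown both in the outermost wells of culture plates and in wells further in, and the comparison described here asked whether gene expression differed between these positions in cultures that received no stimulus. Of the 816 samples of the series, 40 were untreated wells collected at 24 h. The header of the culture table marks 30 of them as middle wells and the other 10 as edge wells, which comprise 5 top, 2 left, 2 right and 1 corner wells. All 40 were primary microglia from neonatal mouse brain, bought from Sciencell and grown on poly-lysine coated plates of 96 wells. The header gives 3 source IDs for them (Sciencell_Feb15, Sciencell_March15 and Sciencell_May16), called cell lots here. The labels give the treatment of all 40 as None. The labels tie no well to an animal of its own, so p-values measure the spread between wells, which may be technical. RNA was read from the 3′ end after pooling of barcoded cDNA. For comparison, the 378 treated wells at 24 h (125 edge, 253 middle, 44 conditions), the 278 treated wells at 72 h (80 edge, 198 middle, 43 conditions) and the 25 untreated wells at 72 h (15 edge, 10 middle) were used. Treatments at 24 h included LPS (alone or with another agent), IFNa, IFNb, IFNg, IL4, IL10, IL13, TGFb, TNFa, GMCSF, P3C, IC and chemokines. Others were ATP, dopamine, norepinephrine, glutamate, GABA, nicotine, estradiol, PGE2, HDL, MPP, substance P, CRH, s100B, AEA, 2AG and fatty acids. Resveratrol, rapamycin, minocycline and valproic acid were also used. Those at 72 h included LPS, IC, IFNb, IFNg, P3C, PGE2, TGFb, eotaxin and estradiol, and mixtures of LPS or TNFa with other agents.

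The outer wells of a multi-well plate are known to lose water and to warm and cool faster than inner wells, a source of variation called an edge effect. Microglia are the resident macrophages of the brain. In culture they can divide, and they answer oxidants and electrophiles through NRF2, a transcription factor that raises genes for glutathione synthesis, peroxide removal and NADPH supply. Shortage of amino acids and misfolded protein raise another set of genes through ATF4. Microglia also lose part of their brain-specific signature once they leave the brain.

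Edge and middle wells were compared within plates, and only 4 of the 6 plates held both kinds, with 7 edge and 26 middle wells. MGm160926A and MGm160926B each had 1 edge well, and MGm161010B had 2. On MG160831 the 3 edge wells formed library pool MG160831A1 and the 3 middle wells formed pool MG160831A2, so position and library pool cannot be told apart on that plate. MG160901 held 3 edge wells and MGm161010A held 4 middle wells, and neither informed the difference. Within the 4 pools that held both kinds, 4 edge wells stood against 15 middle wells. Depth ranged from 1.09 to 14.99 M mapped reads (M for 1e6, median 5.36 M). Edge wells had a median of 4.71 M against 5.43 M in middle wells, a difference of -0.54 M within plates (p = 0.78, 2-sided permutation test of labels within plates). Genes above 5 CPM (a gene's reads scaled to 1e6 mapped reads) numbered 8096 to 9366 in edge and 8127 to 9466 in middle wells (p = 0.58, same test). The correlation of a well with the other middle wells of its plate was 0.895 to 0.952 for the 7 edge wells and 0.835 to 0.955 for the middle wells (p = 0.11, same test).

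Edge wells held less mRNA of genes for DNA replication and mitosis, and more of genes for glutathione and peroxide metabolism. With plate as a block, 144 of 11328 genes (1.27%) were lower in edge wells and 52 genes (0.459%) were higher (limma on log2(CPM + 1), Benjamini-Hochberg adjusted p under 0.05), and the median difference over all genes was 0.03 on the log2 scale. An unadjusted p under 0.05 was reached by 1223 genes. Of the 196 genes called, 168 differed in the same direction on each of the 4 plates that held both kinds of well (49 higher and 119 lower). Edge wells lay outside the range of the middle wells of their plate on all 4 plates for 42 of the 11328 genes (0.371%), and 39 of those 42 were among the 196. With library pool as the block, where MG160831 no longer contributes, 320 genes (2.82%) were lower and 78 (0.689%) higher, and all 196 kept their direction. The edge wells behind that fit had also been used to choose the 196 genes, so the kept direction is not independent of the choice. Plate MGm161010B carried much of the power: without it 47 genes were lower and 17 higher, and without only its edge well E1 or E12 the totals were 117 and 119.

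**Figure D1:**
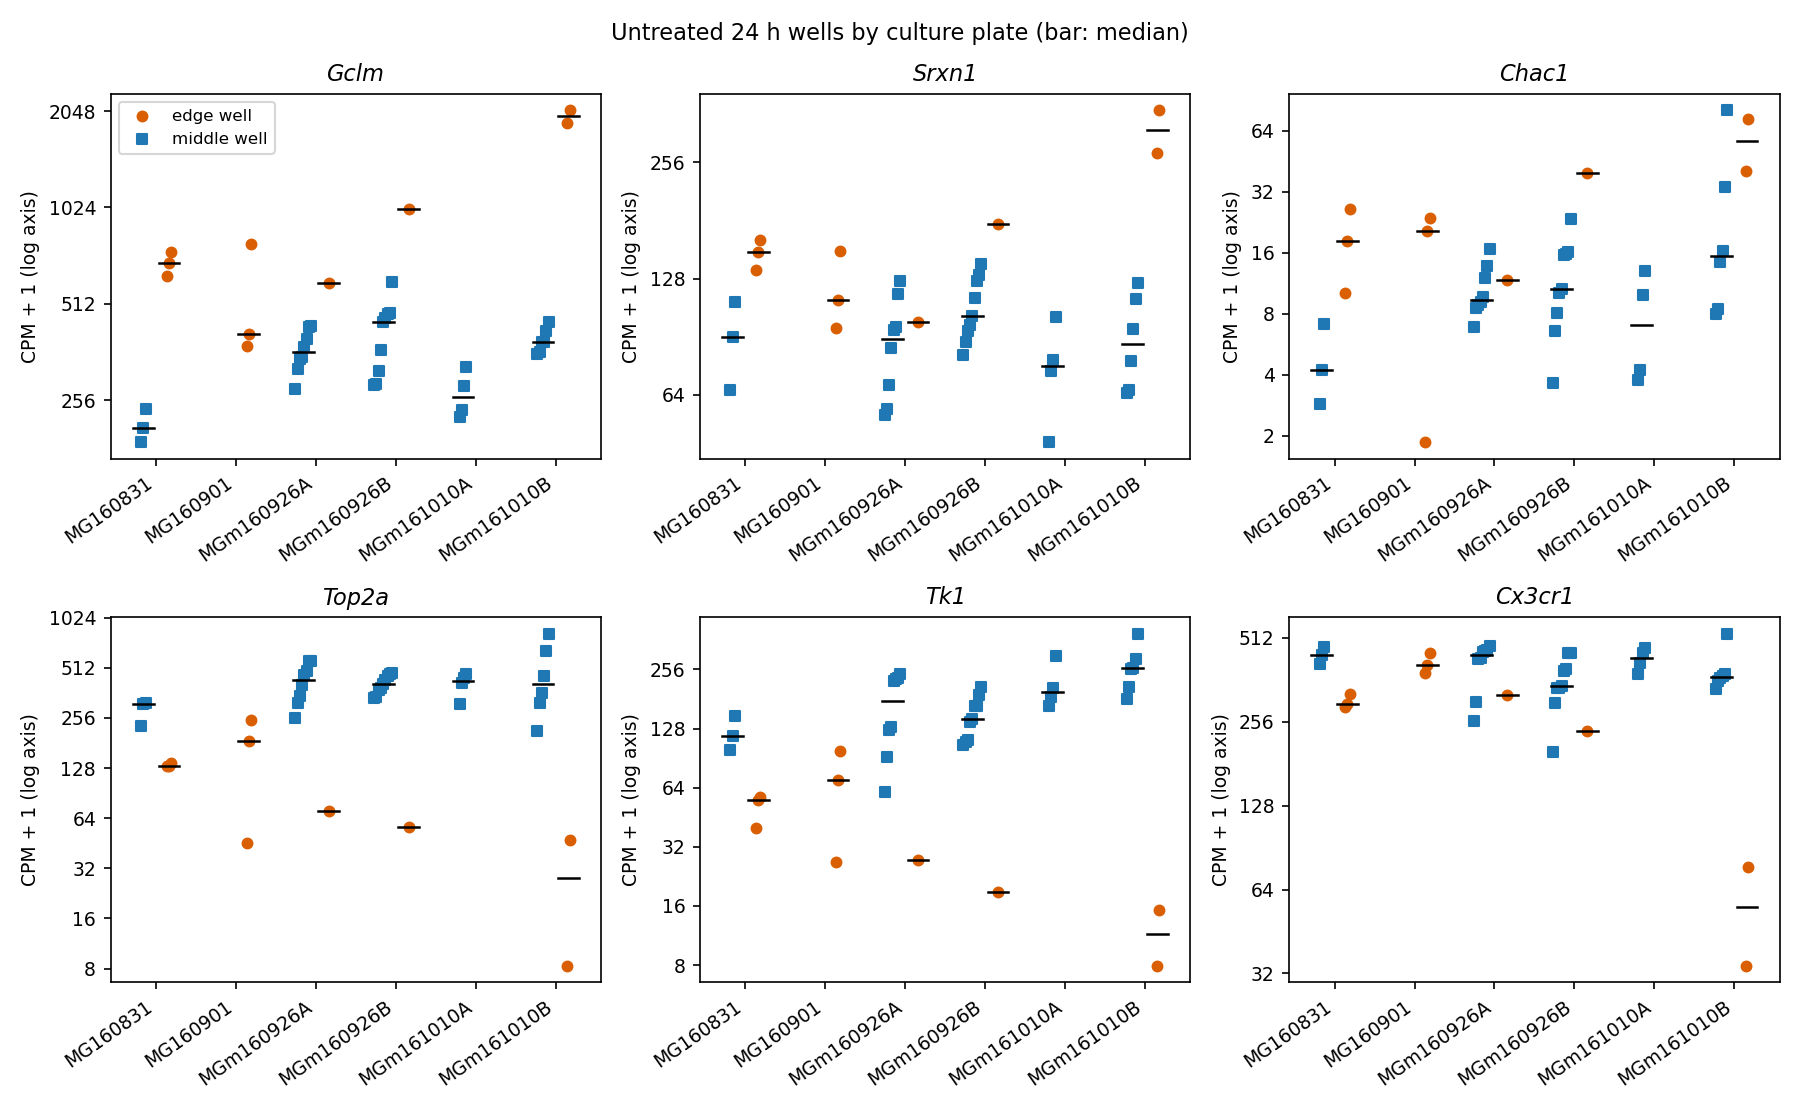
CPM + 1 on a log axis in each of the 40 untreated 24 h wells, by culture plate, for Gclm, Srxn1, Chac1, Top2a, Tk1 and Cx3cr1, with edge wells as circles, middle wells as squares and the median of each kind as a bar. Gclm lies above and Top2a and Tk1 below every middle well of the plate in all 7 edge wells of the 4 plates with both kinds, while Cx3cr1 falls furthest on MGm161010B.

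Proliferation genes made up the largest block of lower genes. Of 35 genes on a list of replication and mitosis genes 34 were tested, and 24 were lower, none was higher and 10 were not called. The list median was -1.44, beside 0.03 for all genes, and all 34 differences were negative. In bulk RNA, fewer dividing cells and less of these mRNAs per cell cannot be told apart.

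Top2a, the topoisomerase that untangles replicated chromosomes, lies on chromosome 11 (98992943 to 99024189, minus strand, GRCm38). On MG160831 its level was 131, 131 and 137 CPM in the edge wells against 227, 310 and 315 CPM in the middle wells. The edge well of MGm160926A held 69.3 CPM against 255 to 564 CPM in 8 middle wells, and that of MGm160926B held 55.7 CPM against 335 to 473 CPM in 9. On MGm161010B the 2 edge wells held 7.31 and 46.5 CPM against 212 to 822 CPM in 6 middle wells. No edge well overlapped the middle wells of its plate, and the difference was -2.73 ± 0.32 (SE) on the log2 scale, 6.63-fold lower (adjusted p = 8.9e-08, limma). The 3 edge wells of MG160901, with no middle well beside them, held 44.1, 185 and 247 CPM, and the highest of these lay inside the range of 212 to 822 CPM over all 30 middle wells.

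Mki67, which encodes the proliferation marker Ki-67, was nearly absent from some edge wells. It was 7.93, 8.04 and 8.46 CPM in the edge wells of MG160831 against 11.7, 19.4 and 24.9 CPM in its middle wells. The edge wells of the other 3 plates held 1.87, 0, 0.34 and 0.83 CPM, where the middle wells held 10.8 to 99.3 CPM. Groups did not overlap on any of the 4 plates, and the log2 difference was -3.07 ± 0.36 (adjusted p = 1.4e-07, limma).

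Tk1, the thymidine kinase of the DNA salvage pathway, had a median of 32.5 CPM in the 10 edge wells (6.93 to 97.7) and 173 CPM in the 30 middle wells (59.7 to 389). It was 7.11-fold lower (-2.83 ± 0.30, adjusted p = 1.7e-08). Mcm7, a subunit of the replicative helicase, had a median of 27.8 CPM at the edge (11.7 to 51.1) and 209 CPM in the middle (52.3 to 455), so that the edge well with the most Mcm7 stayed below the middle well with the least, and a log2 difference of -2.18 ± 0.24 (adjusted p = 3.3e-08). Stmn1, which destabilises microtubules, ranged from 8.92 to 78.4 CPM against 49.8 to 666 CPM (-2.17 ± 0.22, adjusted p = 4.7e-09). Stmn1 was highest on MGm161010B, at 48.0 and 78.4 CPM in the edge wells against 354 to 666 CPM, so that it overlapped between positions over all 40 wells but not within a plate. All p-values here are from limma with Benjamini-Hochberg adjustment.

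Genes of mitosis were also lower. Iqgap3, a scaffold protein of dividing cells, had the largest fall of the genes named by rule (-3.45 ± 0.45, 10.96-fold lower, adjusted p = 1.1e-06, limma). Plk1, the mitotic kinase, ranged from 1.24 to 26.7 CPM at the edge and from 22.6 to 155 CPM in the middle (-2.99 ± 0.33, adjusted p = 4.4e-08). Among the 4 plates its groups overlapped on MG160831, where 1 edge well exceeded the lowest middle well. Ccnb2, a B-type cyclin, had medians of 33.4 and 92.5 CPM (-2.85 ± 0.40, adjusted p = 5.8e-06), and Ube2c, the ubiquitin-conjugating enzyme of the anaphase-promoting complex, 24.4 and 60.9 CPM (-2.89 ± 0.33, adjusted p = 8.9e-08). The rule also named Troap, Pbk, Ckap2, Prc1, Aspm, Hmmr, Cdca3 and Cenpf among the falls, from -3.26 for Troap to -2.59 for Cenpf. Leaving out any single edge well or plate kept Top2a, Mki67, Tk1, Plk1, Stmn1 and Mcm7 called, with Top2a between -3.48 and -1.96. Without MGm161010B, 12 of the 34 list members were called.

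Promoters of these genes are shown because members of the list moved together. RefSeq promoter windows (250 bases before to 50 after the gene start, GRCm38.p6) were matched for 28 of the 35 list genes. The cell cycle homology region, searched as TTTGAA on both strands, was found for 13 of the 28 genes (46.4%), against 20.2% of all 27025 genes with a window and 14.2% of the 8148 genes tested with a window. The CCAAT box, searched as CCAAT on both strands, was found for 24 of the 28 (85.7%), against 41.1% and 42.8%. It was not particular to this list. It was also found for 16 of 21 genes (76.2%) on the list of ER stress and amino acid response, and for 8 of 17 NRF2 genes (47.1%). Of the 106 genes called lower that had a window, 37.7% held TTTGAA. The windows of Plk1 (chr7:122159185-122159484, plus strand) and Ccnb2 (chr9:70421505-70421804, minus strand) follow, 5′ to 3′ on the strand of the gene, with each TTTGAA match in capitals. Plk1 holds 1 match, and Ccnb2 holds 2 and also 3 CCAAT boxes. A match is a string of letters and was not tested as a binding site.
Plk1: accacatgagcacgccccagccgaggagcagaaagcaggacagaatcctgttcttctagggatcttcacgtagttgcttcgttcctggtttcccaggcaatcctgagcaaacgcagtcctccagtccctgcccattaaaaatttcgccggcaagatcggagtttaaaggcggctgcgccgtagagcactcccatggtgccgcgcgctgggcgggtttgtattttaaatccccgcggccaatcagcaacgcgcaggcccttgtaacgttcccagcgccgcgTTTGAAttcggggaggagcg
Ccnb2: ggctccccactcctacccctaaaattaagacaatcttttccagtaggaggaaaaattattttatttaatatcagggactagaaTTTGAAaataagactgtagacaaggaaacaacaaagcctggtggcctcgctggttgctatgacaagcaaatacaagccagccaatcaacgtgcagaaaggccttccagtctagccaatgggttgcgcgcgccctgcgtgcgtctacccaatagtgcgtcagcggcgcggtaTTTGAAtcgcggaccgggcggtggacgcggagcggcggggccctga

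The NRF2 list moved the other way. All 20 members were tested, 10 were higher, none was lower and 10 were not called, with a median of 0.79 beside 0.03 for all genes. Of the 10 that were not called, 9 had a positive difference, and Gpx1 alone was negative (-0.31 on the log2 scale, adjusted p = 0.68, limma). With library pool as the block 12 members were higher and none lower. The count rested on MGm161010B, since without that plate 1 member (Gclm) was called, at a list median of 0.61.

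Gclm, the modifier subunit of the enzyme that sets the rate of glutathione synthesis, lies on chromosome 3 (122245557 to 122270732, plus strand, GRCm38). The edge wells of MG160831 held 626, 684 and 740 CPM and its middle wells 188, 209 and 239 CPM. The edge well of MGm160926A held 595 CPM against 275 to 434 CPM in the middle, and that of MGm160926B held 1015 CPM against 285 to 598 CPM. On MGm161010B the edge wells reached 1883 and 2062 CPM against 354 to 449 CPM. Every edge well lay above all middle wells of its plate, and Gclm was 3.12-fold higher (1.64 ± 0.16, adjusted p = 3.3e-09, the smallest of all genes in limma). The exact rank-sum test within plates gave p = 3.97e-05, the smallest that its 50400 arrangements allow. The edge wells of MG160901 held 376, 410 and 786 CPM. Leaving out any edge well or plate kept the log2 difference between 1.33 and 1.85.

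The peroxide-reducing genes followed with smaller differences. Srxn1, which repairs oxidised peroxiredoxins, was 134, 149 and 160 CPM in the edge wells of MG160831 against 64.8, 89.3 and 110 CPM, and 269 and 348 CPM on MGm161010B against 63.9 to 123 CPM. On MGm160926A its edge well, at 97.7 CPM, lay within the range of the middle wells (55.8 to 125 CPM). The log2 difference of Srxn1 was 0.99 ± 0.19 (adjusted p = 0.000785, limma). Txnrd1, the cytosolic thioredoxin reductase, had a median of 59.8 CPM at the edge and 30.2 CPM in the middle (0.86 ± 0.18, adjusted p = 0.0037). Cat, catalase, had medians of 130 and 75.2 CPM (0.90 ± 0.17, adjusted p = 0.000725).

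Other called members serve NADPH supply, conjugation and cargo clearance. Taldo1, transaldolase of the pentose phosphate pathway, had medians of 444 and 293 CPM (0.90 ± 0.17, adjusted p = 0.000591, limma), and Sqstm1, the autophagy receptor p62, 1161 and 947 CPM (0.87 ± 0.16, adjusted p = 0.000326). Sqstm1 was highest on MGm161010B, at 2820 and 3578 CPM in the edge wells against 1042 to 1625 CPM. Gsta3, a glutathione transferase, stayed low everywhere, with 0 to 10.9 CPM at the edge and 0 to 7.35 CPM in the middle (1.99 ± 0.34, adjusted p = 0.000194), and in the shallowest wells such levels rest on few reads. Hmox1, heme oxygenase, did not pass (0.39, adjusted p = 0.24), nor did Nqo1 (0.32, adjusted p = 0.89).

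The Gclm promoter is shown because Gclm had the smallest p. The antioxidant response element, searched as TGACNNNGC on both strands, was found for 9 of the 17 list genes with a RefSeq window (52.9%), against 13.99% of all genes with a window and 17.1% of those tested. Of the 44 genes called higher that had a window, 29.5% held it. The Gclm window (chr3:122245307-122245606, plus strand, GRCm38.p6) holds 1 match, printed in capitals and lying on the reverse strand.
Gclm: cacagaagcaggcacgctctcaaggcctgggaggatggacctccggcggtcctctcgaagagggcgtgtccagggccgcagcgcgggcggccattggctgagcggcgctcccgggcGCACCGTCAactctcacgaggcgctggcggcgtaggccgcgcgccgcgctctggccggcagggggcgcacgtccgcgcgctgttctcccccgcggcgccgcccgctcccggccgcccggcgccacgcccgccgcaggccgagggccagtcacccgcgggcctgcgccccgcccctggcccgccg

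Genes of the amino acid response rose in part. Of 22 genes on the list of ER stress and amino acid response 20 were tested, 4 were higher (Atf4, Mthfd2, Slc7a11 and Chac1), none was lower and 16 were not called, with a median of 0.09. Chaperone genes of the same list gave differences of either sign, such as Pdia4 at -0.69 (adjusted p = 0.38, limma) and Herpud1 at 0.28 (adjusted p = 0.82). Without MGm161010B no member was called. Slc7a11, the cystine carrier that also stands on the NRF2 list, ranged from 16.2 to 54.6 CPM at the edge and from 3.12 to 46.6 CPM in the middle (1.29 ± 0.29, adjusted p = 0.0073). On MGm161010B its edge wells held 32.4 and 54.6 CPM against 3.12 to 8.95 CPM, but on MGm160926A and MGm160926B its edge well lay within the range of the middle wells.

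Atf4, the transcription factor of this response, had a median of 221 CPM at the edge (122 to 295) and 126 CPM in the middle (59.9 to 233), a log2 difference of 0.64 ± 0.16 (adjusted p = 0.022, limma). Its groups separated on 2 of the 4 plates, and it did not pass in 5 of the 16 fits that left out a well or plate. Atf5, a related factor, was 68.3 against 34.8 CPM (1.14 ± 0.20, adjusted p = 0.000326) and separated on all 4 plates. Chac1, which breaks down glutathione, was 9.12, 17.3 and 25.2 CPM in the edge wells of MG160831 against 1.85, 3.21 and 6.09 CPM in its middle wells, but on MGm161010B its edge wells (39.8 and 72.2 CPM) overlapped middle wells of up to 80.1 CPM. Its difference of 1.48 ± 0.41 only just passed (adjusted p = 0.049) and did not pass in 9 of the 16 fits that left out a well or plate, or with library pool as the block (adjusted p = 0.24). Fits without MG160901, any of its edge wells or MGm161010A could not move a difference. Neither plate held both kinds of well, so fewer than 16 of these fits could change a difference here or for other genes.

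The amino acid response element, searched as TTGCATCA on both strands, was found for 6 of the 21 list genes with a window (28.6%), against 1.03% of all genes. The Chac1 window (chr2:119350992-119351291, plus strand, GRCm38.p6) is shown for comparison with Gclm, with its 1 match in capitals. The window also holds 3 CCAAT boxes.
Chac1: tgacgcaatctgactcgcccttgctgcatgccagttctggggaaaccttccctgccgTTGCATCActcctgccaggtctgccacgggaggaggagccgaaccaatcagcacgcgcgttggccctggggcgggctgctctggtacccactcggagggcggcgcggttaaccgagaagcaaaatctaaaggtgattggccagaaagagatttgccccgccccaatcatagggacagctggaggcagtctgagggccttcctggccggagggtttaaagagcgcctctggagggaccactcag

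Transporters and enzymes of iron and lipid handling were also among the higher genes. Slc40a1, the iron exporter ferroportin, had a median of 267 CPM in edge wells (197 to 370) and 145 CPM in middle wells (53.7 to 269), and was 2.26-fold higher (1.18 ± 0.22, adjusted p = 0.000839, limma). Slc11a1, the metal transporter of the phagosome, was 115 to 189 CPM at the edge and 27.6 to 115 CPM in the middle (0.92 ± 0.16, adjusted p = 0.000191) and separated on all 4 plates. These were the 2 members called of the 15 tested on the list of metallothioneins and iron genes (median 0.26). Lipa, the lysosomal acid lipase, had medians of 976 and 513 CPM (0.77 ± 0.15, adjusted p = 0.0013) and was called, as was Mylip, among the 19 members tested on the list of lipid efflux and storage. On MGm161010B the edge wells held 398 and 532 CPM of Lipa, and the lower of these lay within the middle range of 333 to 400 CPM. With library pool as the block the log2 difference of Lipa was 0.40 (adjusted p = 0.026). It ranged from 0.50 to 1.00 when a well or plate was left out, without a call in 1 of the 16 fits.

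The other genes with the largest rises were weakly expressed or varied. BC025920 (2.25), 5830415F09Rik (2.02) and A530064D06Rik (1.67) had medians of 5.48, 22.6 and 7.53 CPM at the edge. Panx1, a large-pore channel, was 5.96 to 23.02 CPM against 0 to 11.3 CPM (1.49 ± 0.35, adjusted p = 0.011, limma) and separated on all 4 plates. Ptger2, a receptor for prostaglandin E2, was 16.1 against 7.30 CPM at the median (1.29 ± 0.32, adjusted p = 0.018), but did not pass with library pool as the block (1.18, adjusted p = 0.066) or in 4 of the 16 fits that left out a well or plate. Egr2, an immediate-early transcription factor, had medians of 114 and 31.1 CPM (1.15 ± 0.28, adjusted p = 0.013), and on MGm161010B it was low in both positions, at 8.41 and 11.8 CPM against 0.51 to 8.46 CPM. Egr2 did not pass with library pool as the block (1.01, adjusted p = 0.11) or in 4 of those 16 fits. Ppp1r15a (1.26), Ikbip (1.19), Flcn (1.12) and Rps6kc1 (1.10) completed the 15 largest rises. Ppp1r15a (adjusted p = 0.0499) passed in none of the 16 fits.

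Markers of microglia were lower at the edge in only part of the list. Of 20 markers 19 were tested, 2 were lower (Cx3cr1 and Fcrls), none was higher and 17 were not called, with a median of -0.19. Defining markers such as Csf1r, Tyrobp and C1qa were present in both positions, and the summed list level was 9330 to 14531 CPM at the edge and 9593 to 23491 CPM in the middle. Cx3cr1, the fractalkine receptor, was 287, 296 and 321 CPM in the edge wells of MG160831 against 411, 443 and 472 CPM. On MGm161010B it fell to 33.1 and 76.0 CPM against 335 to 529 CPM. On MGm160926A and MGm160926B its edge well lay within the middle range. The log2 difference was -1.25 ± 0.22 (adjusted p = 0.000315, limma), and it was not called without MGm161010B, at -0.49. Fcrls had medians of 249 and 568.2 CPM (-0.75 ± 0.20, adjusted p = 0.038), was lower on 3 of the 4 plates and was not called in 8 of the 16 fits that left out a well or plate.

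**Figure D2:**
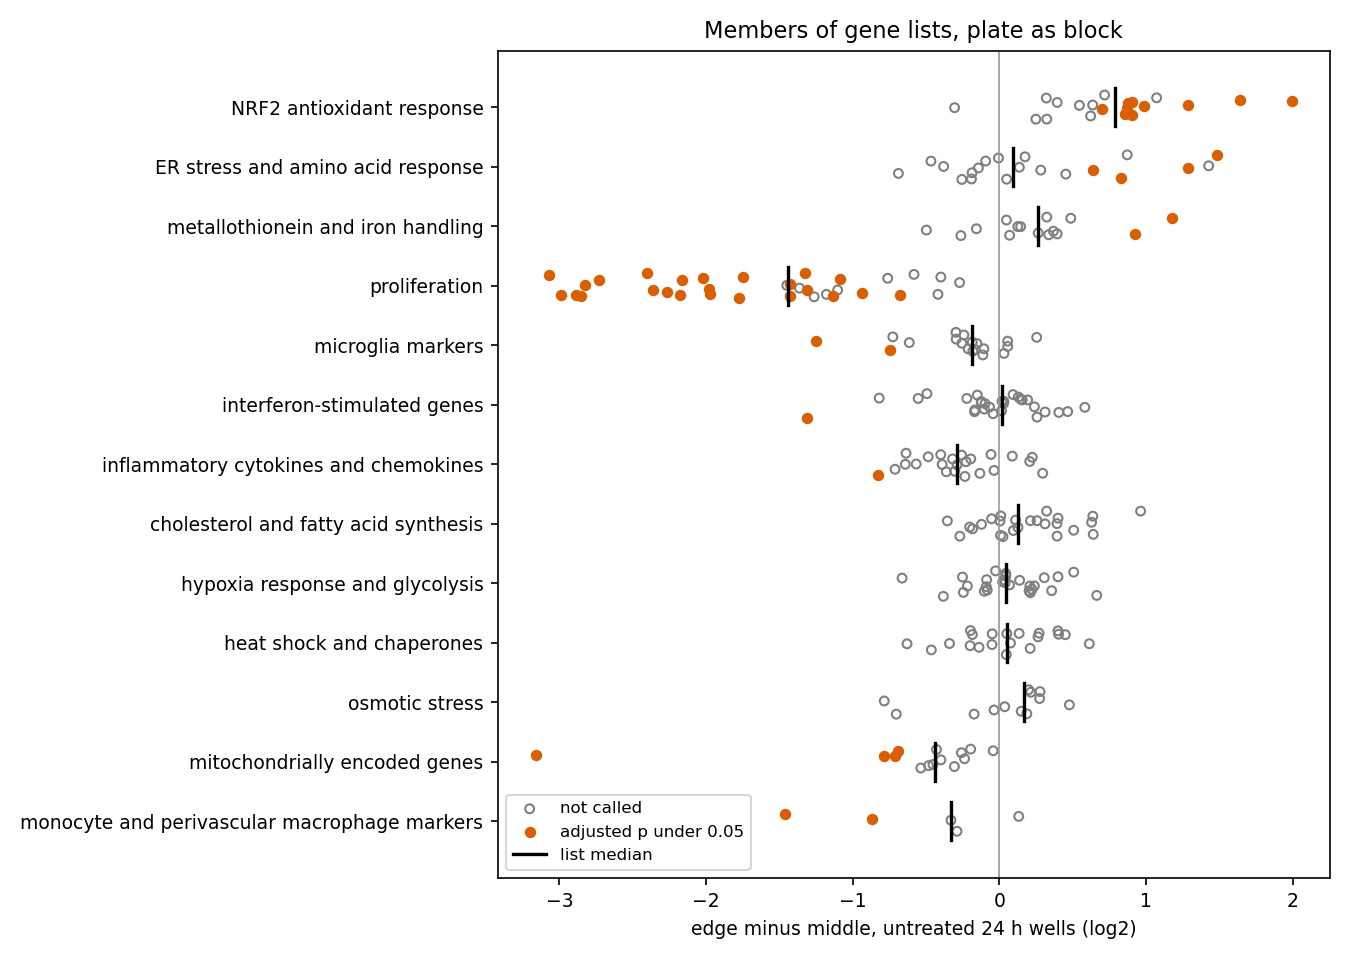
Log2 difference (edge minus middle, plate as block) of each tested member of 13 of the 31 gene lists in untreated 24 h wells, with called genes filled, other genes open and the list median as a bar. The proliferation list lies left of 0 with a median of -1.44 and the NRF2 list right of it with a median of 0.79, while the other medians lie between -0.44 and 0.26.

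Lists for osmotic stress, heat shock and hypoxia, and several lists of other functions, held few or no called genes. None was called among the 12 tested genes of osmotic stress (median 0.17), 20 of heat shock (0.05), 27 of hypoxia and glycolysis (0.04), 25 of cholesterol and fatty acid synthesis (0.13), 19 of disease-associated microglia (0.14) or 13 of antigen presentation (0.06). The cold-induced RNA-binding proteins Cirbp (0.31, adjusted p = 0.61, limma) and Rbm3 (-0.19, adjusted p = 0.79) did not pass either. Interferon-stimulated genes had 1 lower member of 29 tested (Ifi27l2a, -1.31, adjusted p = 0.013) and a median of 0.01. Ifi27l2a did not pass with library pool as the block (-1.24, adjusted p = 0.0698) or in 4 of the 16 fits that left out a well or plate. Cytokines and chemokines had 1 lower member of 23 (Ccl4, -0.83, adjusted p = 0.015) and a median of -0.29. Ccl4 was lower on 3 of the 4 plates with both kinds of well and did not pass in 5 of those 16 fits. Missing the threshold with so few edge wells does not show that these lists were equal.

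Markers of other cell types were present at varied levels in both positions. Summed levels at the edge and in the middle were 10.6 to 44.3 and 7.42 to 40.3 CPM for astrocytes, 66.4 to 96.9 and 49.5 to 151 CPM for the oligodendrocyte lineage, and 0 to 6.27 and 0 to 7.11 CPM for lymphocytes. They were 0.81 to 23.9 and 0 to 35.7 CPM for neurons, 33.04 to 161 and 28 to 187 CPM for endothelium, and 2.70 to 32.6 and 1.66 to 19.5 CPM for neutrophils. Fibroblast and mural genes varied most, from 3.86 to 529 CPM and from 0.65 to 1284 CPM, with Acta2 the most abundant and medians of 55.4 CPM at the edge and 165 CPM in the middle. All 5 tested genes of that list had a negative difference (median -0.52). Of the genes on these lists 2 oligodendrocyte, 2 neuron, 3 endothelial, 1 fibroblast, 3 neutrophil and 4 lymphocyte genes were at 0 in all 40 wells. No tested member of these 7 lists was called. Of 10 genes for monocytes and perivascular macrophages 5 were tested and 2 were lower, namely Pf4 (110 against 218 CPM at the median, -0.87 ± 0.16, adjusted p = 0.000683, limma) and Cbr2 (22.1 against 31.3 CPM, -1.46 ± 0.33, adjusted p = 0.0078). The summed level of that list was 327 to 559 CPM at the edge and 471 to 765 CPM in the middle. Its part in the other differences was not tested.

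Mitochondrially encoded genes were lower in a way that differed by plate. Of 14 tested, 4 were lower and none was higher (median -0.44). mt-Rnr1, the small mitochondrial ribosomal RNA, was 45.1, 91.0 and 97.7 CPM in the edge wells of MG160831 but 17750, 29364 and 83349 CPM in its middle wells, which were all of pool MG160831A2. On MGm160926A and MGm160926B the edge wells held 168 and 199 CPM, inside or above middle ranges of 46.9 to 217 and 5.36 to 159 CPM. On MGm161010B they held 39.01 and 92.0 CPM, below 103 to 912 CPM in the middle. The 3 edge wells of MG160901, with no middle well beside them, held 7819, 12522 and 13597 CPM, so high levels were not confined to middle wells. The plate fit gave -3.16 ± 0.79 (adjusted p = 0.019, limma), and the fit with library pool gave -0.76 ± 0.58 (adjusted p = 0.62). For the list as a whole the fit with library pool gave 5 lower genes of 14, none higher and a median of -0.66. For Gclm (1.57 ± 0.18) and Top2a (-3.51 ± 0.28) the fit with library pool kept the call.

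The treated wells at 24 h were not used in the comparison above. Some of them came from the same culture plates and library pools, so they are not independent of it in plate, pool or handling. The same contrast was fitted in these treated wells with plate and condition. There 1374 of 14272 genes (9.63%) were lower and 703 (4.93%) higher in edge wells. Of the 196 genes called in untreated wells, 189 (96.4%) had the same sign, 173 (88.3%) were called in the same direction and none was called in the opposite one. The same direction was called for 42 of the 52 higher and 131 of the 144 lower genes. The 7 with the opposite sign, Gm20634, Gm37939, Ikbip, Smc5, mt-Co1, mt-Nd5 and mt-Rnr1, were not called in treated wells. With a term for each condition on each plate, 659 genes were lower and 507 higher.

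**Figure D3:**
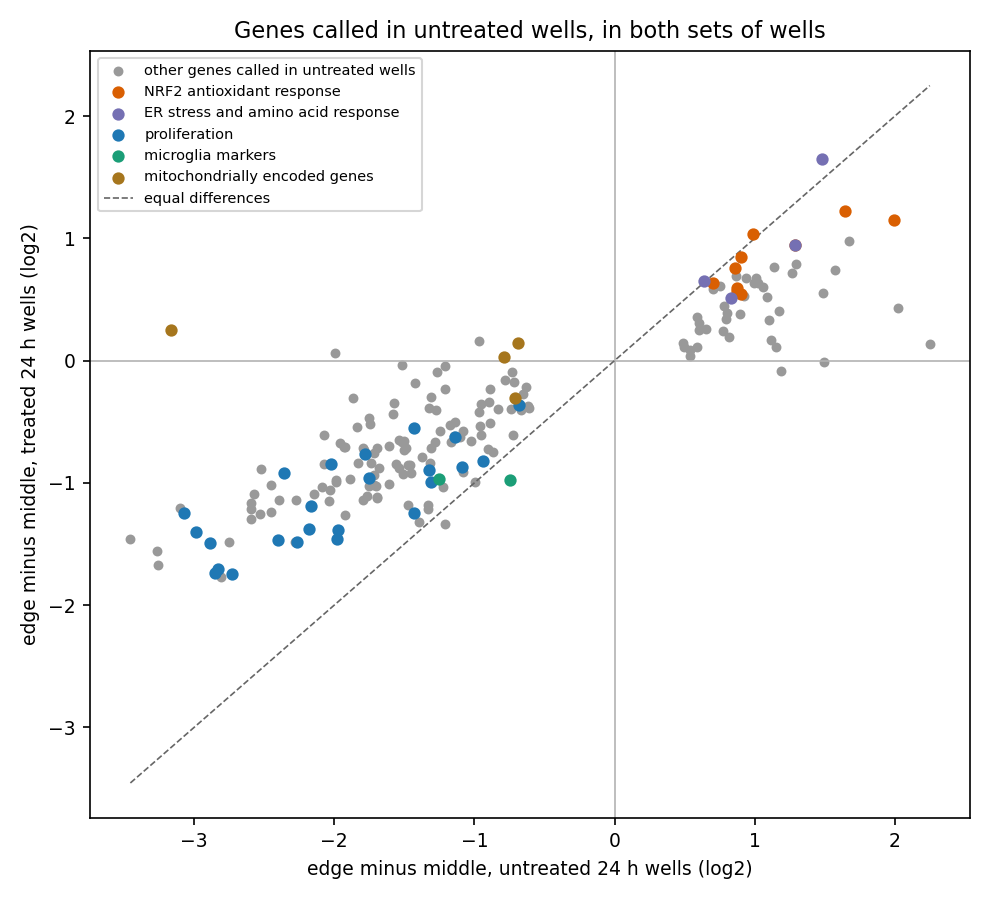
Log2 difference between edge and middle wells in untreated 24 h wells (x axis) and treated 24 h wells (y axis) for the 196 genes called in untreated wells, coloured by list, with a dashed line where both are equal. Of the 196 genes 189 have the same sign in both, and 191 lie further from 0 in untreated wells, which is the set they were chosen in.

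In treated wells 19 of the 20 NRF2 genes were higher and Gpx1 was lower, with a median of 0.58 beside -0.01 for all genes. Gclm rose by 1.23 ± 0.06 (adjusted p = 3.4e-59, limma) and was higher at the edge in all 50 groups of wells that shared condition and plate and held both kinds. Srxn1 (1.04 ± 0.07) was higher in 48 of the 50. Of 35 proliferation genes 34 were lower (median -0.96), and Top2a (-1.74 ± 0.11) was lower in 48 of the 50 groups and Tk1 (-1.70 ± 0.11) in 47. Of 21 genes of the amino acid and ER list 12 were higher and none lower (median 0.28), and Chac1 (1.65 ± 0.14, adjusted p = 6.4e-25) was higher in 40 of the 50.

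With more wells, lists that held few calls in untreated wells also moved. Of 20 microglia markers 15 were lower and none higher (median -0.38), among them Cx3cr1 (-0.97 ± 0.10), Fcrls (-0.98 ± 0.10) and P2ry12 (-0.62 ± 0.10, adjusted p = 1.6e-07, limma). With a term for each condition on each plate 9 of these 20 were lower. Of 30 interferon-stimulated genes 21 were lower (median -0.30), and treated wells include conditions that induce such genes. Slc40a1 (0.41 ± 0.08), Slc11a1 (0.53 ± 0.05) and Lipa (0.25 ± 0.05) rose, but Egr2 did not pass (0.11 ± 0.11, adjusted p = 0.56). Edge shares of the 44 conditions ran from 0 to 75.0% with a median of 30.3%, and 4 conditions had no edge well, against 25% in untreated wells.

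A test of whether the difference itself was unlike in untreated and treated wells called none of 14433 genes (limma interaction, smallest adjusted p = 0.15), with 893 genes at an unadjusted p under 0.05. With condition and library pool in place of plate it also called none, and without the plate term it called 1 gene, Rarres1 (1.09, adjusted p = 0.026). The median size of the difference over the 196 genes was 1.35 in untreated and 0.71 in treated wells on the log2 scale, but the genes had been chosen in the untreated set.

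In treated wells at 72 h, with plate and condition in the fit, 1739 of 15313 genes (11.4%) were lower and 1194 (7.80%) higher. Of the 196 genes 157 were called in the same direction and 2 in the opposite one. Among the latter was Pf4, lower at the edge in untreated 24 h wells but higher in this fit (0.47 ± 0.145, adjusted p = 0.009996, limma). The rise of Pf4 was not seen within the 31 groups at 72 h that shared condition and plate and held both kinds. There Pf4 was higher at the edge in 14 and lower in 17, with a median log2 difference of -0.01. Gclm rose by 2.39 ± 0.10 (adjusted p = 3.4e-59, limma), Srxn1 by 2.17 ± 0.10 and Slc40a1 by 1.87 ± 0.13, and 19 of the 20 NRF2 genes were higher, with a median of 1.40. Proliferation genes were lower for 28 of 35 members and higher for 1 (median -1.08), and the log2 difference of Cx3cr1 was -2.62 ± 0.22. Some pools held edge wells only. With library pool in place of plate 532 genes were lower and 262 higher, among them 19 NRF2 genes higher and 18 proliferation genes lower.

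In untreated wells at 72 h no plate held both kinds of well. The 10 middle wells were all on plate MGm160930B, and the 15 edge wells were on MGm160930A, MGm161010C and MGm161010D, so position and plate cannot be told apart and no test within plates was possible. Gclm was 3334.5 to 6173 CPM (median 4688.5) in the edge wells and 243 to 366 CPM (median 287) in the middle wells. Srxn1 was 336 to 861 CPM against 35.997 to 73.8 CPM, and Top2a 0 to 71.7 CPM against 261 to 463 CPM. Cx3cr1 was 1.24 to 116 CPM against 120 to 265 CPM. None of these 4 genes overlapped between the groups. Lipa, Egr2, Mcm7 and Fcrls did overlap, and Atf5, which was higher at the edge at 24 h, had medians of 36.6 CPM in edge wells and 41.7 CPM in middle wells.

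**Figure D4:**
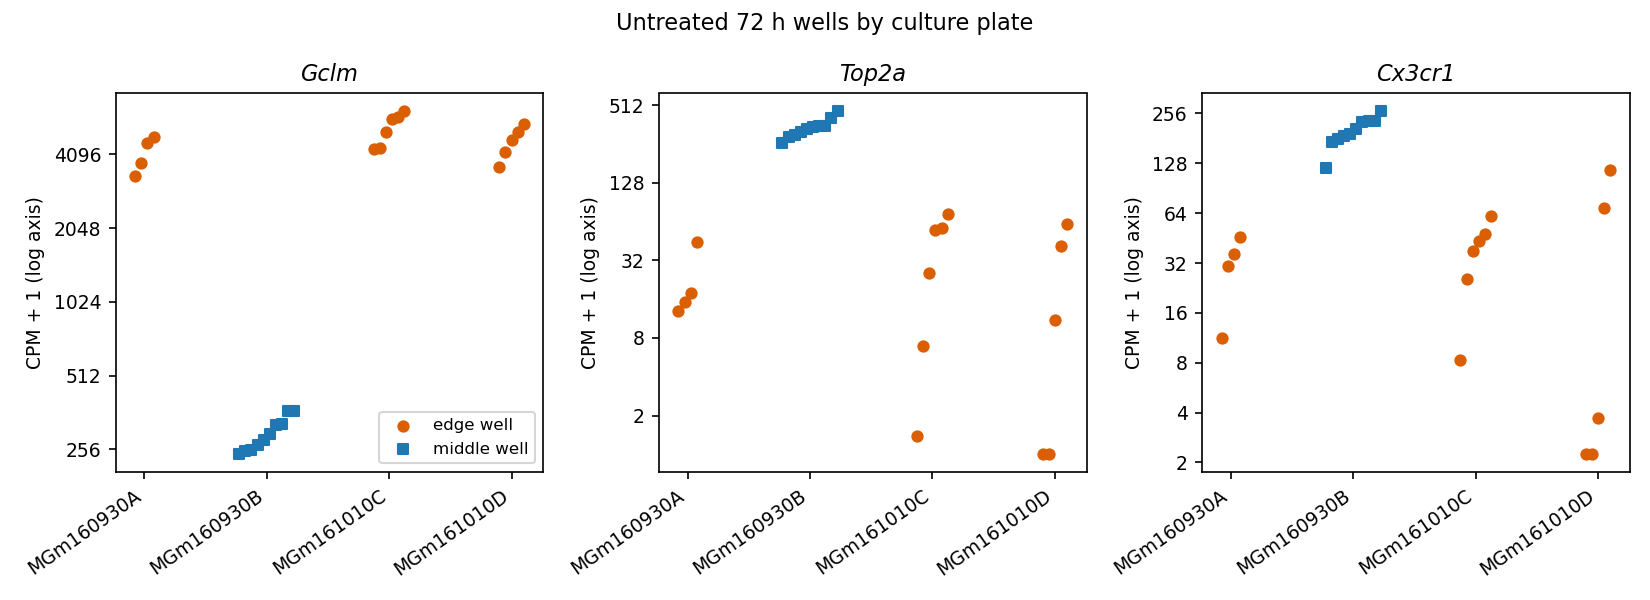
CPM + 1 on a log axis in the 25 untreated 72 h wells by culture plate, for Gclm, Top2a and Cx3cr1, with edge wells as circles and middle wells as squares. Every plate holds only 1 kind of well, and the 10 middle wells of MGm160930B lie apart from the 15 edge wells for all 3 genes.

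Position was finally followed inward and around the plate in treated 24 h wells, where each ring held 55 to 125 wells. Relative to the innermost ring, with condition and plate in the fit, Gclm was 1.42 ± 0.09 (SE) higher in the outer ring, 0.34 ± 0.09 in the second and 0.09 ± 0.10 in the third. Srxn1 was 1.33 ± 0.10, 0.43 ± 0.10 and 0.24 ± 0.11, and Chac1 1.93 ± 0.22, 0.42 ± 0.22 and 0.24 ± 0.23. When the 107 second-ring wells were compared with the 146 wells further in, 6 of 14272 genes (0.0420%) were called, among them Gclm (0.27 ± 0.06, adjusted p = 0.023, limma), Srxn1 (0.30 ± 0.07, adjusted p = 0.028) and Lipa (0.30 ± 0.06, adjusted p = 0.028). No proliferation gene was called there, with a list median of -0.06, and Tk1 was at -0.04 ± 0.12.

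**Figure D5:**
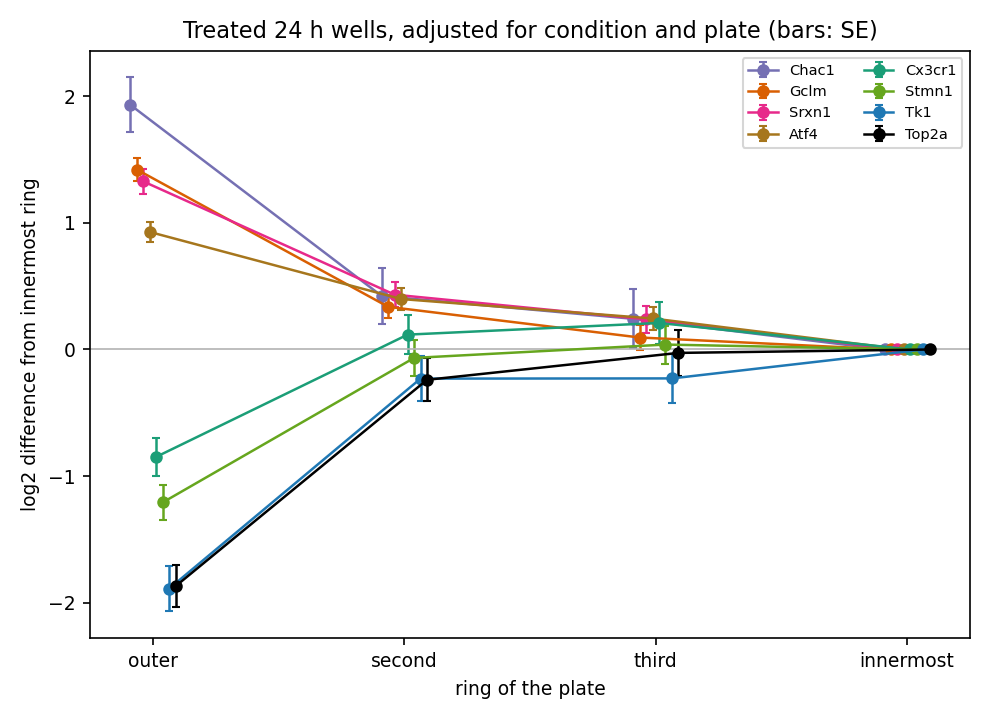
Log2 difference of each ring of treated 24 h wells from the innermost ring, adjusted for condition and plate, for 8 genes, with SE bars. Gclm falls from 1.42 in the outer ring to 0.34 in the second, and Top2a goes from -1.87 to -0.24.

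Gclm and Top2a kept their direction on each side of the plate in treated 24 h wells. The log2 difference of Gclm from middle wells was 1.48 ± 0.10 in 36 top wells, 0.84 ± 0.12 in 29 bottom wells, 1.07 ± 0.10 in 24 left wells, 1.24 ± 0.10 in 25 right wells and 1.56 ± 0.15 in 11 corner wells. Top2a was -1.99 ± 0.18, -0.97 ± 0.22, -1.77 ± 0.19, -1.83 ± 0.18 and -2.01 ± 0.28 in the same order. Top, bottom, left and right differed from each other for 1159 of 14272 genes (F test in limma), including Gclm (adjusted p = 0.011) and Top2a (adjusted p = 0.034) but not Srxn1 (adjusted p = 0.27) or Chac1 (adjusted p = 0.46). Sqstm1 was 0.95 ± 0.09 higher in top wells but 0.07 ± 0.12 in bottom wells (adjusted p = 0.90), and differed between sides (adjusted p = 1.9e-05). In bottom wells 32 of the 14272 genes were higher and 112 lower, and in top wells 443 and 1612. Bottom wells were fewer and had larger standard errors (0.22 against 0.18 for Top2a), so these counts also depend on precision. The untreated 24 h edge wells included no bottom well. Of the 196 genes, between 178 (bottom) and 187 (left) had the same sign on a side as in untreated wells.

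The called genes were also looked up in the co-expression modules that the study had built from its stimulated cultures. The 31 modules read here held 1504 genes, of which 1353 were tested and 27 called, beside 196 called of all 11328 tested. The module with the highest median in untreated wells among those with over 20 tested genes was TQ_greenyellow (27 tested, 2 higher, none lower, median 0.43), and in treated 24 h wells 17 of its 27 genes were higher (median 0.28). BR_turquoise had 1 lower gene of 145 in untreated wells and 76 lower of 148 in treated wells (median -0.24). The modules were chosen by the study on samples that include these, so they are not independent evidence of direction.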

How the data were processed

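Transcript abundance in the 3′-end libraries was estimated by the authors with salmon 0.7.1 and Ensembl release 81. They added up the reads of each gene, divided by all mapped reads and deposited CPM, which the paper calls TPM. The submitters' notes list mm8 as a build, and positions given here are from GENCODE M21 (GRCm38). No length correction is described. Values are relative, so a rise in some genes lowers others. Among low values of a well, 73.2% to 85.1% fell no more than 0.1 from whole reads, so counts were not rebuilt and depth was taken from the step between low values. In the shallowest well, at 1.09 M mapped reads, 1 CPM is about 1 read.

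Well type, plate, pool and source ID (called cell lot here) came from the table's header, and treatment and time from the labels. Edge wells are all wells not marked Middle. Values were transformed as log2(CPM + 1), which understates the change of low genes. Genes above 5 CPM in at least 4 wells were tested with limma 3.58.1 in R 4.3.3, with an intensity trend, plate as a fixed block (and condition in treated wells) and Benjamini-Hochberg adjustment at 0.05. The ± values are standard errors. Depth, gene number and correlation were compared by 100000 permutations within plates, and named genes also by an exact rank-sum test within plates. Scripts were tested on simulated data. Other steps used Python 3.11.15, pandas 2.3.3, scipy 1.17.1 and matplotlib 3.10.9.

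Genes were named as the 15 largest rises and 15 largest falls among called genes with a mean of at least 5 CPM in the higher group and the same direction on each plate with both kinds of well, and up to 4 members of each list with the smallest p. Any other gene was picked with its values already known. Members, lists and tests were chosen with earlier results of these data known. The comparisons by ring and by side of the plate and, in treated wells, the fits with a term for each condition on each plate, with library pool at 72 h or against untreated wells, with the condition term only at 72 h and with size factors were added after the data were seen. No 2 wells held identical values. The 63 cultures collected at 4 h were not used.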

Additional observations from a re-analysis of the deposited data

Results flagged for a closer look

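In the 10 untreated 24 h edge wells, the log2(CPM + 1) of Top2a was lowest in well E12 of plate MGm161010B, at 7.31 CPM. Its gap to the nearest of the other edge wells was 0.498 of the range of the group, above Dixon's 95% critical value. Of 37 groups tested 1 was picked out in this way, and chance picks out about 1 in 20.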

How the results depend on the processing

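In untreated 24 h wells the number of genes called, 196 with plate as the block, was 320 with no plate term (142 higher and 178 lower, so that 44.4% rather than 26.5% were higher) and 398 with library pool in place of plate or with plate and library pool together. It ranged from 64 to 239 when 1 edge well or 1 plate was left out, and was 64 without plate MGm161010B, 123 without plate MGm160926B, and 117 and 119 without the edge wells E1 and E12 of MGm161010B. In treated wells the count went from 2077 to 1166 with a term for each condition on each plate at 24 h, and from 2933 to 794 with condition and library pool at 72 h. The comparison of untreated with treated wells went from 0 to 1 gene with the condition term only. Of the 54 named genes called, 1369 of 1608 values over 30 settings kept direction and call, 232 kept direction only and 7 reversed. The settings without MG160901, any of its edge wells or MGm161010A could not move a difference, so the first of these totals is raised by them. The largest rises and falls were chosen with the same direction on each plate with both kinds of well. Leaving out a plate could therefore hardly reverse them. The reversals were mt-Nd6 (0.19 with no plate term, 0.19 with cell lot), mt-Co1 (0.035 and 0.12), mt-Nd5 (0.24 and 0.28) and mt-Rnr1 (0.81 with no plate term). The cause was not tested. With the exact rank-sum test within plates 53 of the 54 had an unadjusted p under 0.05. That is a looser threshold than the adjusted p by which these genes were called in the same wells. The total of 1369 counts this test among its settings. The fit with plate could not be fitted in untreated 72 h wells. Without a plate term 2998 of 10570 genes were called there, 2532 of them lower at the edge, in a contrast that compares plates as well as positions. No paired analysis was possible because replicate numbers of wells were given in accession order. Depth limits genes of a few CPM in the shallowest wells.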

Other observations

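Over all genes tested in treated 24 h wells 9.63% were lower and 4.93% higher at the edge, and lists that held few calls in untreated wells are given beside these shares. Among genes of antigen presentation, 0 of 13 were called in untreated 24 h wells (limma, median 0.06), and 7 of 16 were lower and none higher in treated 24 h wells (median -0.18). Genes for adhesion, the cytoskeleton and YAP targets had 2 lower of 24 (Lgals1 and Fn1, median -0.21) in untreated wells and 8 lower of 26 (median -0.15) in treated 24 h wells. Cytosolic ribosomal protein genes had 1 lower of 75 (Rpl29, median -0.08) and 12 lower of 76 (median -0.06). Other lists had calls in both directions in treated 24 h wells, with 9 higher and 2 lower of 29 genes of hypoxia and glycolysis (median -0.01) and 4 higher and 7 lower of 20 genes of disease-associated microglia (median 0.01).

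In untreated 24 h wells 0.459% of all genes tested were higher and 1.27% lower at the edge, so a single call describes a gene and not its list. Among immediate-early genes 1 of 22 was higher in untreated wells (Egr2), and among lysosome genes 1 of 26 (Atp6v1a). No gene was called among 19 p53 targets (median 0.02) or 46 nuclear respiratory chain genes (median -0.12), and among 7 IL4 response genes 1 was higher and 1 lower.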
